A study of Drosophila melanogaster with 2 samples.

Results

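The regions described here were the autosomal binding summits of the CG7101 fusion protein that lay inside an intron, far from any transcription start site. They were taken by 3 criteria from the IDR peaks, the list that the authors kept for low irreproducible discovery rate (IDR) between replicates. The summit, the base of highest signal in a peak, had to lie on an autosome, inside a gene but in no annotated exon, and more than 2000 bp from the nearest start site of any gene. Of 6486 IDR peaks, 634 met them (9.77%).

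The peaks came from chromatin immunoprecipitation and sequencing (ChIP-seq) of whole adult female Drosophila melanogaster of unknown age, from 1 transgenic line in which CG7101 carried green fluorescent protein at its C-terminus, immunoprecipitated through that tag. There was 1 group of 2 biological replicates and no second genotype, sex or stage, so nothing could be compared between conditions. The labels do not give what drove expression of the fusion protein, and chromatin of whole animals mixes all tissues, so that a site bound strongly in few cells and a site bound weakly in many cannot be told apart. The lists give no read depth, which is therefore unknown, and every 95% interval below covers counting error over peaks, genes or windows only, which are not replicates of a condition.

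In Drosophila, introns of long genes, the first intron above all, hold many of the enhancers that set where and when a gene is transcribed. An enhancer is a stretch of DNA with binding sites for several sequence-specific factors, which open the chromatin and act on a promoter that can lie far away. Promoters carry a different set of DNA elements, such as the DNA replication-related element (DRE) and Motif 1, so words in the DNA under distal summits describe these regions apart from promoters.

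Sequences of 12 summits are shown because they carry the words that the results on sequence turn on, or because they were the strongest. Each is the 121 bases centred on the summit, read 5′ to 3′ on the plus strand of the Release 6 assembly, the sequence of the dm6 build. Capitals mark the forkhead word TGTTTAC, the GATA word GATAAG, the CTCF word AGATGGCGC, 4 repeats of GA (GAGAGAGA) and the word CACTGTA, each on either strand. The first 2 come from the summits ranked 1 and 3 by signal and hold none of these words within these bases. The next 3 were the strongest holding the forkhead word, and the sequence from aop, which encodes an ETS repressor, holds a forkhead and a GATA word side by side. The sequence from Nuak, a gene for a kinase related to AMPK, holds 3 GATA words. Those from RapGAP1 and Eip75B hold the CTCF word, that from Snoo the GA repeat, and those from MCU and simj the word CACTGTA.
CG32486, chr3L:3060737-3060857, plus strand: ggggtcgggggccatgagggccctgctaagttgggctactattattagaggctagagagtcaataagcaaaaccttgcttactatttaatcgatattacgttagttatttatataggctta
Kdm2, chr3R:9057508-9057628, plus strand: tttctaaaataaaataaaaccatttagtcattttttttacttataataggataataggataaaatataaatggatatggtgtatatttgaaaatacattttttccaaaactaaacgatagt
smash, chr3R:4665125-4665245, plus strand: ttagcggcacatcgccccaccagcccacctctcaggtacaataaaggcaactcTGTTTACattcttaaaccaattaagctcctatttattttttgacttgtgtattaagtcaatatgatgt
spen, chr2L:166636-166756, plus strand: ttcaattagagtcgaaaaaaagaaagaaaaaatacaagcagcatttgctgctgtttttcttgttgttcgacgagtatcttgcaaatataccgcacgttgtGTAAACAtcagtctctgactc
CG13917, chr3L:1591817-1591937, plus strand: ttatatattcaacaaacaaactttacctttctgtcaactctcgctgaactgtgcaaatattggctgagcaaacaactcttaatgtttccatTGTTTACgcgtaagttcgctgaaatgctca
aop, chr2L:2176084-2176204, plus strand: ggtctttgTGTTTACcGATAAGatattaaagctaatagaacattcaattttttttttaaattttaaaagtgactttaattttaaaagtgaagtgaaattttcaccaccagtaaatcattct
Nuak, chr3R:10268578-10268698, plus strand: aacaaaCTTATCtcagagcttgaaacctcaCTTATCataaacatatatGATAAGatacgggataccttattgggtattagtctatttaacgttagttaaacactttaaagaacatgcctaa
RapGAP1, chr2L:7535055-7535175, plus strand: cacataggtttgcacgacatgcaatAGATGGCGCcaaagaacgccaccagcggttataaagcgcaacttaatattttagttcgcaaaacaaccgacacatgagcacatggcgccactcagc
Eip75B, chr3L:18019771-18019891, plus strand: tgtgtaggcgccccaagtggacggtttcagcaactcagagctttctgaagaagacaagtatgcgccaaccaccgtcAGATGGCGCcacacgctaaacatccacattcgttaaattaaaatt
Snoo, chr2L:7961239-7961359, plus strand: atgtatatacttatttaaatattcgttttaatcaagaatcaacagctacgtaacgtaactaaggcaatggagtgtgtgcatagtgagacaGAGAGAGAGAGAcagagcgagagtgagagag
MCU, chr3L:6553058-6553178, plus strand: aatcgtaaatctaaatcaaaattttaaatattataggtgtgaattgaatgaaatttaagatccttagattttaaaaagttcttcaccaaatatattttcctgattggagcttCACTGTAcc
simj, chr3L:10683103-10683223, plus strand: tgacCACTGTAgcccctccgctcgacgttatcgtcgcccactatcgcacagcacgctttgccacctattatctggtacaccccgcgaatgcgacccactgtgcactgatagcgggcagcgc

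The strongest summit lay in the first intron of CG32486 (3L, 3060573 to 3061050), at a signal of 3156, the peak strength written by the authors' caller on a scale that is not stated. It ranked 31 among all IDR peaks, 38 in the replicate 1 list and 24 in the replicate 2 list. The host gene's own nearest start was 10042 bp away and the nearest start of any gene, CG16753, 5718 bp away. The second lay in CG12769 (2R, 8060806 to 8061242) at a signal of 2516, with rank 52 in replicate 1 and 58 in replicate 2.

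Of the 30 strongest summits, those in genes for chromatin proteins are described first. Kdm2, a histone lysine demethylase (3R, 9057286 to 9057824), had a signal of 2379 with ranks of 51 and 87 in replicates 1 and 2. At upSET, which encodes a SET-domain chromatin protein (3L, 14004829 to 14005362), the signal was 2256 with ranks of 83 and 59. The trx gene, for the histone methyltransferase Trithorax, had a summit of 1099 (ranks 358 and 306), and JIL-1, for a histone H3 kinase, one of 1003 (ranks 440 and 339). In simj, which encodes a subunit of the NuRD complex, 2 of its 5 summits were among the strongest, at 1490.0 (ranks 138 and 277) and 1171 (ranks 236 and 388).

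Other hosts are described by what they encode. The tara gene, a member of the trithorax group that acts in the cell cycle and in sleep, held a summit of 2095 (3R, 16236737 to 16237208, rank 86 of all IDR peaks). cic, for an HMG-box repressor that receptor tyrosine kinases control, held one of 1730 (ranks 164 and 113). Pdp1, for a bZIP activator of the circadian clock, held 2 of the 30 strongest, at 1353 (ranks 219 and 216) and 941 (ranks 417 and 513). Signals of 1303 at mam, the Notch coactivator Mastermind, 1211 at sbb, a corepressor, and 1192 at spen, an RNA-binding corepressor, lay close together. Among genes for signalling and cell shape, smash, a protein of adherens junctions, had 2065, Pak3, a kinase activated by small GTPases, 1372, ex, an upstream component of the Hippo pathway, 1036, scrib, a polarity scaffold, 968, and msn, a kinase, 845. MCU, which encodes the mitochondrial calcium uniporter, had 1194.

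The other hosts among the 30 strongest were atos, lili, crp, Lrch, comm3, ush, CG13917, Nuak and Eip75B, at signals from 809 to 1725. All 30 lay between ranks 38 and 890 in replicate 1 and between 24 and 778 in replicate 2, in 28 host genes. The ranks of a summit in the 2 lists differed by at most 2.77-fold among them. First introns held 21 of the 30, and 24 had a GC content below 40.3%, the median of the eligible sequence defined below.

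As a set the far intronic summits had a lower median signal than the other IDR peaks. Their signals ran from 142 to 3156 with a median of 214.4 (95% interval 208 to 228), against 236.8 for the 712 autosomal intronic summits between 500 and 2000 bp from a start, 257.6 for the 3326 autosomal promoter summits within 500 bp, and 245.2 for all IDR peaks. The strongest 3243 of the IDR peaks held 256 of the 634 (40.4%, where all IDR peaks give 50%), and the strongest 300 held 17 (2.68%, where all IDR peaks give 4.63%). The 3 weakest were in heca, CG42674 and tai, at 142.3 to 142.6, close to the end of the IDR list.

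The IDR list was kept for agreement between the replicates, so presence in both follows from the selection and is given as a description. A peak of the replicate 1 list overlapped 633 of the 634 by at least 1 bp, a peak of the replicate 2 list 631, and peaks of both 630 (99.4%, 95% interval 98.4 to 99.8, against 99.6% of all IDR peaks). The 4 exceptions were in drn, CG3764, CG6051 and AcCoAS, at signals from 149 to 156. The replicate summit lay a median of 8 bp from the pooled one in replicate 1 and 16 bp in replicate 2. Ranks in the replicates had a Spearman correlation of 0.67 over 630 summits (0.75 over 6463 IDR peaks), given as a description, since both lists come from the same line. They were within 2-fold of each other for 547 (86.8%, against 86.0% of all IDR peaks), and more than 4-fold apart for 12. In 3 of these 12 a replicate summit lay more than 100 bp away. The largest differences, in comm3 (38.9-fold) and Pdp1 (15.6-fold), pair a summit with the replicate peak of a stronger summit in its interval.

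**Figure D1:**
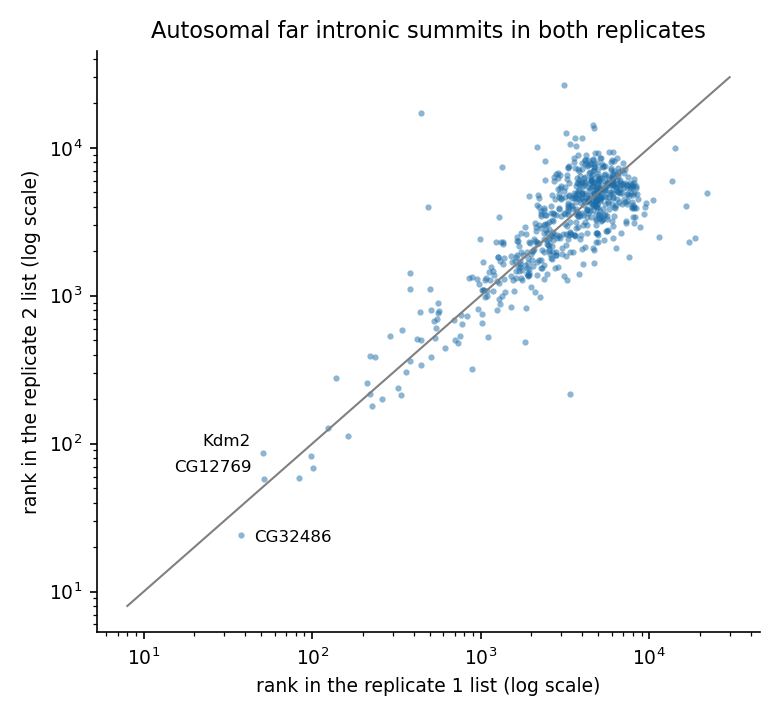
Rank of each of the 630 summits with a peak in both replicates in the replicate 1 list (x axis, log scale) and in the replicate 2 list (y axis, log scale), with the line of equal ranks. CG32486, CG12769 and Kdm2 are at the strong end, and most points lie in a cloud among the weak ranks, with 12 points more than 4-fold off the line.

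The sequence in which such a summit could lie, intronic and more than 2000 bp from any start, came to 33.4 Mb, or 30.3% of the autosomal arms, and is called eligible sequence. It held 19.0 summits per Mb (95% interval 17.5 to 20.5). Densities were 21.8 per Mb on 2L (142 summits), 18.5 on 2R (132), 21.8 on 3L (176) and 16.3 on 3R (183). Chromosome 4 had 1 summit in 0.445 Mb of eligible sequence, which gives 2.25 per Mb with an interval from 0.0569 to 12.5, below the intervals of the other arms. Eligible sequence of X held 33.2 per Mb (29.4 to 37.5, 266 summits), above the interval of every autosome arm.

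Density fell with distance from the nearest start, without a step at 2000 bp. On the autosomes it was 62.7 per Mb of intronic sequence between 1000 and 2000 bp, 38.7 between 2000 and 3000 bp (166 summits), 29.4 between 3000 and 5000 bp (182), 19.0 between 5000 and 10000 bp (168), 14.1 between 10000 and 20000 bp (96) and 3.02 beyond 20000 bp (22). On X the same far intervals had 78.8, 57.4, 28.5, 11.3 and 5.91 per Mb, so that the interval of X lay above that of the autosomes in the nearer 2 of them and the intervals of the farther 3 overlapped. Summits lay a median of 4540.5 bp from the nearest start (quartiles 2940 and 7934 bp, at most 41831 bp), where windows of eligible sequence lay a median of 8421 bp away. Just inside the limit were ps (2001 bp, signal 195.8), lncRNA:CR44320 (2005 bp, 457) and ttv (2018 bp, 182.0). Just outside it were fru (1996 bp, 294), Agpat2 (1990 bp, 169) and CG9171 (1989 bp, 482).

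**Figure D2:**
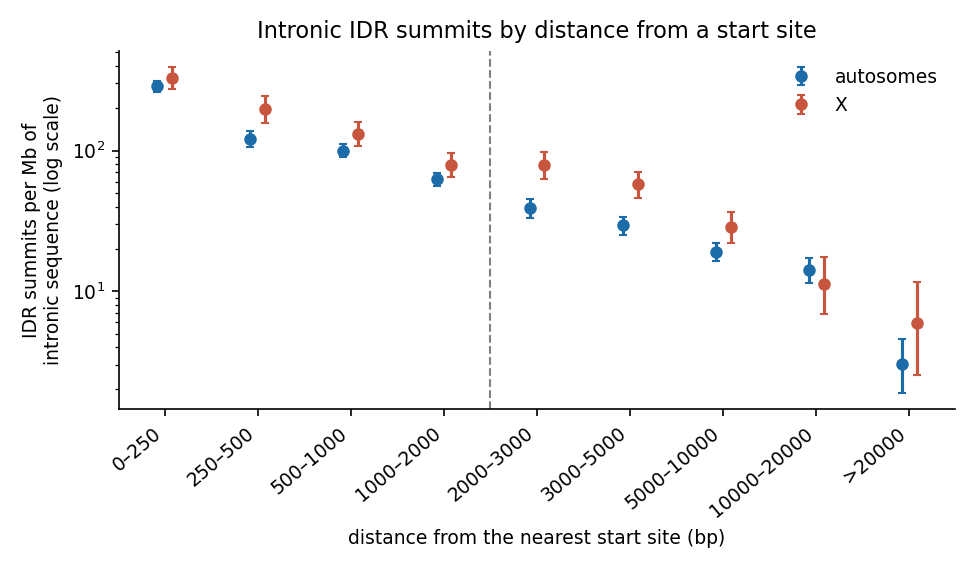
IDR summits per Mb of intronic sequence (y axis, log scale) by distance from the nearest start site (x axis, bp), for the autosomes and X, with 95% Poisson intervals. Points to the right of the dashed line at 2000 bp are the far summits, whose autosomal density goes from 38.7 per Mb down to 3.02 per Mb.

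Far summits lay in first introns more often than eligible sequence does. A first intron held 362 of the 634 (57.1%, 95% interval 53.1 to 61.0), against 31.3% of all 158521 eligible windows. These are consecutive windows that lie whole in eligible sequence and reach 100 bp to either side of their centre. They were not matched to the summits for distance from a start. Each position was given the shortest annotated intron that holds it, at its lowest order in any transcript. A second intron held 177 (27.9%, against 28.0%). Introns holding a summit had a median length of 11376 bp, and those at eligible windows 17312 bp. Position along the intron was close to even, with 24.1% of summits in the first 25% of its length and 21.1% in the last 25%. Annotated transposable elements held 0 of the 634 summits and 8.80% of eligible windows. How reads from repeated sequence were treated was not given in the sources used here.

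Of the 634 summits, 627 lay in 368 protein-coding host genes, or 10.6% of the 3460 autosomal genes with eligible sequence, and 7 only in noncoding genes. Of the hosts, 227 held 1 summit, 141 held 2 or more and 33 held 4 or more. For 454 summits (71.6%) the nearest start was one of the host gene itself. The genes with the most were sbb with 9, then tara, Pdp1, crp, Eip75B and Eip74EF with 8 each, Snoo and shn with 7, and B4 and ftz-f1 with 6. Snoo encodes a corepressor of SMAD factors, shn a zinc-finger factor of Dpp signalling, and crp a bHLH factor.

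In some of the genes with the most summits, 1 or a few strong summits stood among weaker ones. In Pdp1 the 8 signals were 1353, 941, 448, 310.0, 249, 181, 176 and 172. Those of 1353 and 249 lay in 1 interval, and those of 941 and 448 in neighbouring intervals. In tara the 8 signals were 2095, 790, 686, 413, 318, 240, 186 and 169, the second and the third of them in 1 interval. In Eip74EF, an ETS factor induced by ecdysone, the highest was 310.2 and the lowest 145. Pdp1 and tara thus held summits above the upper quartile of the whole set, 333, and just below its lower quartile, 173. Those in Eip74EF also reached below the lower quartile, but none exceeded the upper one. Summits that share an interval were counted separately in the counts per gene and in the runs below. Whether such close summits are separate binding sites was not tested.

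The distance to the nearest other summit had a higher median for far intronic summits than for all IDR peaks, but one close to that of promoter summits. Another IDR summit of any kind was a median of 2830 bp away, against 2296 bp for all IDR peaks and 1406 bp for the intronic summits near starts. The median was 2818 bp for autosomal promoter summits, 3502.5 bp for autosomal intergenic summits far from starts and 1638.5 bp for the far intronic summits of X. Another IDR summit was within 1000 bp for 153 of the 634 (24.1%), and within 10000 bp for 547. The share within 1000 bp was 26.4% for all IDR peaks, 35.5% for those near starts and 23.5% for promoter summits. Another far intronic summit lay within 10000 bp of 353 (55.7%). Joining those within 10000 bp gave 407 runs, of which 281 were single summits and 26 held 4 or more, 129 summits together (20.3%). The longest runs, of 8 summits each, were in sbb over 20.9 kb and in crp over 15.6 kb, and a run of 6 in B4 spanned 7.36 kb. The counts within 10000 bp and the runs are not set beside those of other IDR peaks. Whether far intronic summits cluster more than other peaks was not tested. With only the strongest summit of each interval kept, 621 far intronic summits remained. Their median distance to another IDR summit was then 2995 bp.

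Hosts of far intronic summits were often bound at a start site as well. Of the 368, 267 had an IDR summit within 500 bp of one of their starts (72.6%, 95% interval 67.7 to 77.1), against 41.5% of all autosomal genes with eligible sequence and 32.9% of all 11749 autosomal protein-coding genes. The share was 83.0% (75.7 to 88.8) for the 141 hosts of 2 or more and 66.1% (59.5 to 72.2) for the 227 hosts of 1. Densities per Mb take the length of the genes into account. Genes with a bound start held 47.4 far intronic summits per Mb of their eligible sequence (43.4 to 51.7, 1435 genes) and genes without one 5.99 (5.03 to 7.07, 2025 genes), a ratio of 7.92. In the upper tertile of genes by eligible sequence the densities were 43.5 (419 genes) and 5.13 per Mb (734 genes), a ratio of 8.46. In the middle tertile they were 94.96 (486 genes) and 19.8 (667 genes), a ratio of 4.79, and in the lower tertile there were 0 summits in 530 genes and 1 in 624 genes. Density thus also differed with the eligible sequence of a gene, and the lists described next were not matched for it. In these counts a summit inside overlapping genes counts for each of them. In 128 of the 267 hosts with a bound start (47.9%) the strongest far summit had a higher signal than the strongest promoter summit. Of these 267, 117 held 2 or more far summits, and the number of summits compared was not matched. As examples chosen after the values were seen, the summits in tara were at 2095 in the intron and 230.5 at the start, those in Kdm2 at 2379 and 264, and those in Socs36E at 565 and 179.9, whereas Lpin, for the phosphatidate phosphatase lipin, had 244 in the intron and 3336 at its start.

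Across 16 gene lists, 341 listed genes had eligible sequence on the autosomes, and 90 of them hosted a far summit (26.4%, beside the 10.6% of all genes). The list genes held 26.5 summits per Mb (22.7 to 30.6), against 19.2 (17.7 to 20.7) for all genes with eligible sequence. The lists were chosen with results of these data known, and they differ in how many starts were bound. List genes with a bound start held 46.8 per Mb (39.4 to 55.1, 163 genes), beside the 47.4 of all genes with one, and list genes without held 9.54 (6.65 to 13.3, 178 genes), beside 5.99. Density was not separated by start binding within single lists. Of all genes with eligible sequence, 41.5% had a bound start. The share was 12 of 16 for the ecdysone list, 7 of 9 for clock genes and 6 of 11 for insulin and TOR. It was 9 of 13 for lipid metabolism, 6 of 10 for immune signalling and 23 of 34 for kinases. For ligands and receptors it was 12 of 28, for developmental factors 13 of 46 and for chromatin proteins 26 of 32. Muscle genes had 5 of 15.

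The ecdysone response, the hormone cascade that times moulting and, in adult females, egg development, had 10 hosts of 16 genes and 36 summits, 74.3 per Mb (52.1 to 103). Eip75B, a nuclear receptor induced by ecdysone, held signals of 809, 412, 336, 236, 229, 201.4, 187 and 152. At the strongest (3L, 18003381 to 18003818) the ranks were 546 and 610 in replicates 1 and 2. ftz-f1, a nuclear receptor, had 564 as its highest of 6, and EcR, the ecdysone receptor, 307 as its highest of 3. E23, an ABC transporter, held 1 of 445, Hr3, a nuclear receptor, 1 of 233, and tai, a coactivator of EcR, 4 of at most 218. Without Eip74EF, the list's first gene by count, the density was 64.1 per Mb (42.6 to 92.6).

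Clock genes had the highest density of any list, 200 per Mb (110 to 336), from 14 summits in 5 of 9 genes with 0.0699 Mb of eligible sequence. Starts were bound in 7 of the 9, and their median eligible sequence was 3.25 kb. Across all genes with a bound start the density was 47.4 per Mb, and 94.96 in the middle tertile by eligible sequence. Pdp1 gave 8 of the 14, and without it the density was 171 (62.7 to 372). The bZIP repressor vri, which opposes Pdp1 in the clock, held 3, at 767 (ranks 558 and 764), 387 and 373. The bHLH-Orange repressor cwo held 1 of 429, Clk, the bHLH activator of the clock, 1 of 187, and tws, a phosphatase subunit, 1 of 194.

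Genes of metabolism and growth control were also hosts. Insulin and TOR signalling had 7 of 11 genes and 120 per Mb (54.8 to 227), with S6k, the ribosomal S6 kinase, at 314, InR, the insulin receptor, at 288 and foxo, the forkhead factor that insulin signalling restrains, at 209.8 as the higher of 2. Its other hosts, among them the sestrin gene Sesn and the insulin antagonist ImpL2, had signals from 143 to 152. Lipid metabolism had 4 of 13 genes and 106 per Mb (38.8 to 230). There bmm, the main triglyceride lipase of the fat body, had 582 (3L, 14780280 to 14780565, ranks 1056 and 973) and 153, Pect, an enzyme of phospholipid synthesis, had 247 as the higher of 2, Lpin 244 and the lipophorin receptor gene LpR2 196. Immune signalling had 4 of 10 genes and 110 per Mb (47.4 to 217), with Socs36E, an inhibitor of JAK/STAT signalling, at 565 (ranks 1049 and 1098), Tl, the receptor Toll, at 296 and Stat92E, the STAT factor, at 269 as the highest of 3. Median eligible sequence per gene in these lists was, in order, 2.42, 1.16 and 3.78 kb. Genes of the middle tertile with a bound start held 94.96 per Mb, inside the intervals of these lists. Without Sesn, Pect and Stat92E, first by count in their lists, the densities were 107 (43.2 to 221), 74.8 (20.4 to 191) and 78.1 (25.4 to 182).

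Kinases and small GTPase regulators had 12 hosts of 34 genes and 43.3 per Mb (26.1 to 67.7), led by puc, a phosphatase that restrains JNK, at 788, the Hippo kinase gene wts at 643 and aPKC at 396. Signalling ligands and receptors had 11 of 28 and 33.5 per Mb (19.5 to 53.6), with shn at 561, the EGF receptor antagonist aos at 448 and the Hedgehog receptor ptc at 413. Without shn, a transcription factor of the pathway that gave 7 of the 17 summits, the density was 20.9 (10.04 to 38.5). The list of developmental transcription factors had 13 hosts of 46 genes and 29.1 per Mb (19.5 to 41.9), led by crp at 1027, the BTB factor gene bab2 at 653 and psq, another BTB factor, at 563. Without crp its density was 21.5 (13.3 to 32.9), close to that of all genes. Chromatin and insulator proteins had 3 of 32 (9.38%), Kdm2, trx and Mi-2, a NuRD remodeller with 268 as the higher of 2, with 7 summits in 0.0700 Mb (95% interval 40.2 to 206 per Mb). Without trx the density was 64.5 per Mb (17.6 to 165), an interval that holds the 19.2 of all genes. Muscle genes had 4 of 15 and 37.4 per Mb (13.7 to 81.5), with the muscle factor Mef2 at 394, Zasp52, a Z-disc protein, at 337 and Prm, paramyosin, at 221.

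The lists of long neuronal genes and of RNA-binding proteins had low densities of far summits, but were not matched to all genes for eligible sequence. Median eligible sequence per gene was 25.7 kb for adhesion, 27.1 kb for RNA-binding proteins, 7.68 kb for ion channels and 11.6 kb for receptors. For all genes it was 1.58 kb. In the same order, a start was bound in 11 of 41, 20 of 26, 7 of 23 and 5 of 35 genes. Cell adhesion and axon guidance, with 1.45 Mb of eligible sequence, had 6.22 per Mb (2.84 to 11.8) in 6 of 41 genes, with Fas3, an adhesion protein, at 498, the semaphorin gene Sema1b at 495 and caps, a leucine-rich repeat receptor, at 452. RNA-binding proteins, in 1.42 Mb, had 9.88 (5.40 to 16.6) in 8 of 26, led by the translational repressor gene pum at 403, shep at 324 and mub at 315. Ion channels had 9.26 (2.52 to 23.7) in 3 of 23, which were Trpm, Shal and Trpgamma at 288, 203 and 182. G protein-coupled and neuromodulator receptors had 0 summits in 35 genes with 0.497 Mb, which allows up to 7.43 per Mb. The intervals of the adhesion, RNA-binding and receptor lists lay below that of all genes, and that of the ion channels overlapped it. The 5.99 per Mb of all genes without a bound start lay inside the intervals of all these lists. Most RNA-binding genes had a bound start, however. Their interval lay below the 47.4 per Mb of all genes with a bound start, and below the 43.5 of such genes in the upper tertile by eligible sequence. Genes of cytosolic ribosomal proteins had no eligible sequence, and those of mitochondrial ones had it in 2 genes, neither a host.

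**Figure D3:**
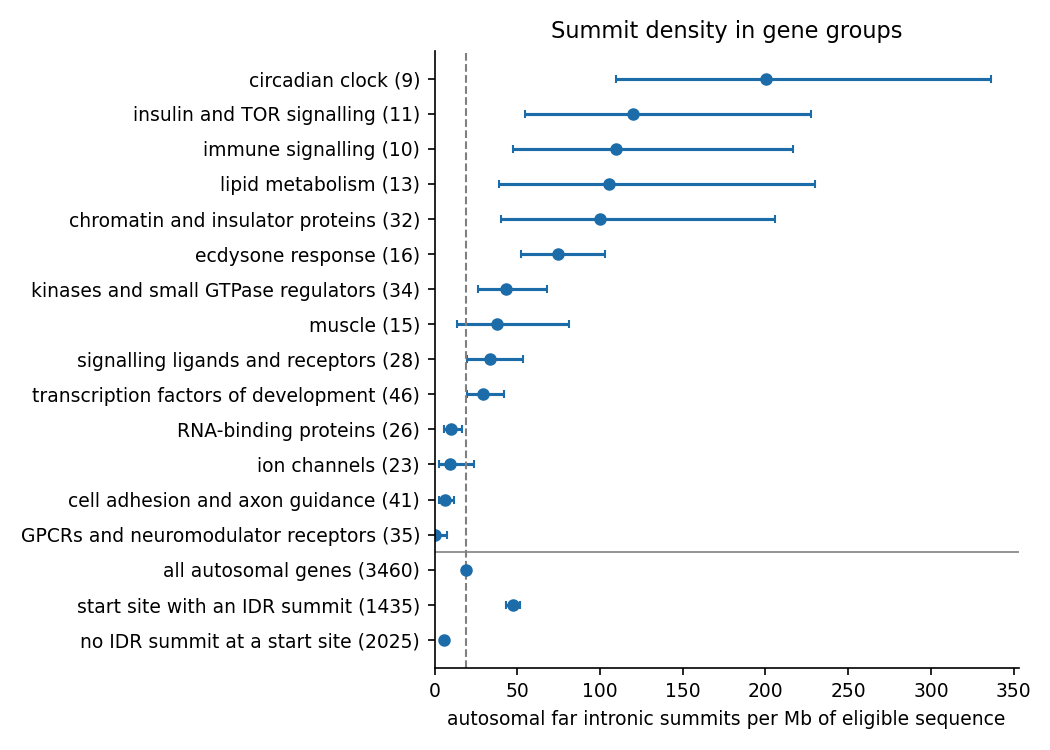
Far intronic summits per Mb of eligible sequence (x axis) in the gene lists with at least 5 genes, and below the line in all autosomal genes and in those with and without an IDR summit at a start site, with 95% Poisson intervals and the number of genes in brackets. The dashed line is the value of all genes, and the lists run from 0 for G protein-coupled and neuromodulator receptors to 200 per Mb for clock genes.

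The DNA at the summits was richer in A and T than its surroundings. The GC content of the window from 100 bp before to 100 bp after each summit had a median of 36.3% (quartiles 31.3 and 41.8), against 40.3% both in the windows 500 bp to either side and in all eligible windows. It was below 40.3% in 425 of the 634 (67.0%). The stronger 317 by signal had a median of 34.8% and the weaker 317 a median of 37.8%, and the 30 strongest had 29.4% with a range of 19.9 to 49.8%. Weaker summits of the pooled list that met the same position rule but lay below the IDR list, 5105 in all, had 40.3%. Promoter summits of the IDR list, at 36.8%, were close to the far intronic ones. The strongest summit of all, in CG32486, had 48.8%.

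Of 23 words searched on both strands in the windows, 4 with 5 or more holders occurred in at least 2 times the share of eligible windows. Some overlap: the CGATA word lies inside the DRE word TATCGATA, and GAGAG inside GAGAGAGA. The forkhead word TGTTTAC, which factors such as foxo bind, was in 88 of 634 windows (13.9%, 95% interval 11.3 to 16.8) and in 4.21% of eligible windows, a ratio of 3.30. It was in 4.42% of windows 500 bp away, 7.86% at the weaker pooled summits of the same kind, 6.77% at the far intronic summits of X, 7.94% at autosomal promoter summits and 10.5% at intronic ones near starts. The holders were spread over strong and weak summits, 45 among the stronger 317 and 43 among the weaker 317, with median signals of 216 with the word and 214 without.

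The forkhead word was also placed at the summit. Of its 100 occurrences 45 were within 25 bp of the summit, where an even spread over the window gives 26.2%. Density was 1.39 per kb within 25 bp, 0.946 from 25 to 50 bp, 0.284 from 50 to 75 bp, 0.568 from 75 to 100 bp and 0.300 from 200 to 500 bp. The strongest holders were smash, spen, CG13917, bmm and aop, the first 3 and aop among the sequences above. Hosts from the lists that held it at a named summit included bmm (582), cwo (429), Sema1b (495), pum (403) and Mef2 (394).

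The GATA word GATAAG was in 105 windows (16.6%, 13.8 to 19.7) against 8.07% of eligible windows and 12.1% of windows 500 bp away. It was in 18.5% at intronic summits near starts, 14.8% at the weaker pooled summits, 14.7% at the far intronic summits of X and 12.7% at promoter summits. It was not densest at the summit, at 0.866 per kb within 25 bp and 1.10 per kb from 100 to 200 bp. CG12769, MCU, ex, Nuak and MESR3 held the strongest summits with it, and 16 windows held both GATA and forkhead words. The 4 GA repeats were in 22 windows (3.47%, 2.19 to 5.21) against 1.15% of eligible windows and 2.44% of windows 500 bp away, the latter inside the interval, with crp, GEFmeso and Snoo the strongest, and with 4 of 55 overlapping occurrences within 25 bp of the summit. Shares of 2.53% at intronic summits near starts, 2.63% at those of X and 2.48% at all IDR peaks were also inside it. At promoter summits the share was 2.16% and at weaker pooled summits 2.08%, below it. The CTCF word AGATGGCGC was in 6 windows (0.946%, 0.348 to 2.05) against 0.102%. It was in 0.281% at intronic summits near starts, 0% at the far intronic summits of X and 0.786% at all IDR peaks. At autosomal intergenic summits far from starts it was in 3.21%. The 6 windows were in RapGAP1, Usp15-31, Tet, Eip74EF and at 2 summits of Eip75B, at signals of 527, 206, 183, 177, 336 and 187.

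Words of promoters were less frequent than at promoter summits. DRE was in 4 windows (0.631%) against 0.436% of eligible ones and 8.15% at promoter summits. Motif 1, GGTCACACT, was in 0 of 634, which with the exact interval allows up to 0.580%, and in 4.78% at promoter summits. The palindromic E-box CAGCTG was in 5.68%, against 7.15% and, at promoters, 13.3%. CGATA, the short word of the insulator factor BEAF-32, was in 25.6% (22.2 to 29.1) against 19.9% and, at promoters, 40.7%. The word AGGTCA, which receptors such as ftz-f1 and Eip75B bind, was in 2.21% (1.21 to 3.68) and in 5.19% of eligible windows. It was in 3.37% at promoter summits, 3.93% at intronic summits near starts and 4.51% at the far intronic summits of X. The GCCAT word of Pleiohomeotic sites was in 26.7% (23.3 to 30.3) and 35.5%. Its shares at the same 3 classes were 25.6%, 24.2% and 21.8%, and 26.2% at all IDR peaks. The lower share of GCCAT was thus not particular to the far intronic summits. The part of the lower GC content in these shares was not tested.

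**Figure D4:**
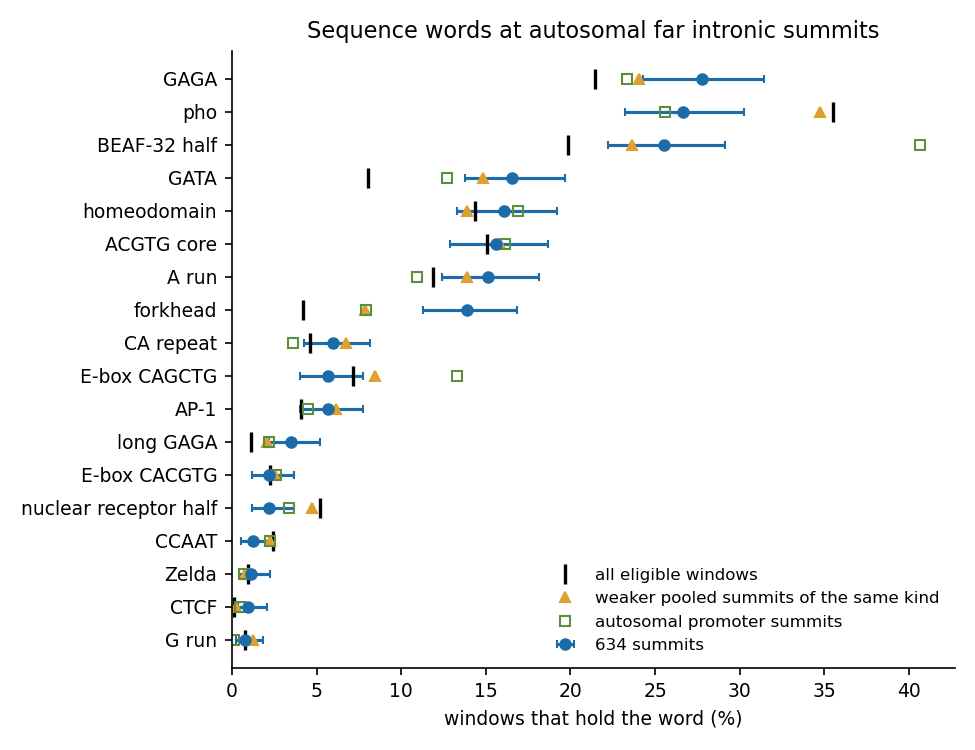
Share of windows, 100 bp to either side of the centre, that hold each word (x axis, %) at the 634 summits (circles with 95% exact binomial intervals), at weaker pooled summits of the same kind (triangles), at autosomal promoter summits (squares) and in all eligible windows (bars), for words in at least 5 summits. The forkhead word is at 13.9% against 4.21% of eligible windows, and GATA at 16.6% against 8.07%.

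Words not in that list were sought by counting every word of 7 bases held by at least 40 of the windows and ordering them by their ratio to eligible windows. There were 461 such words, 24 of them with a ratio of at least 2. The words named below were chosen by the values they are described with. First was CACTGTA, in 48 windows (7.57%) against 1.69% of eligible windows, a ratio of 4.48, with 7.89% at the far intronic summits of X and 3.15% at the weaker pooled summits. The second was GTAAACA, the forkhead word read on the other strand. The third, CTGTGTA, followed at a ratio of 3.14 and the fifth, ACAGTGG, at 2.90. The fifth reads CCACTGT on the other strand and shares the bases CACTGT with the first word, so they are not separate finds. ACAGTGG was in 6.62% of the windows, 7.44% at intronic summits near starts and 12.4% at the far intronic summits of X. The fourth and the sixth contain the GATA word. Unlike the forkhead word, CACTGTA was sparser at the summit than beside it, at 0.247 per kb within 25 bp, 0.694 from 75 to 100 bp and 0.126 from 200 to 500 bp. The strongest holders were tara, cic, MCU, scrib and Lrch, and 5 windows held both CACTGTA and the forkhead word.

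**Figure D5:**
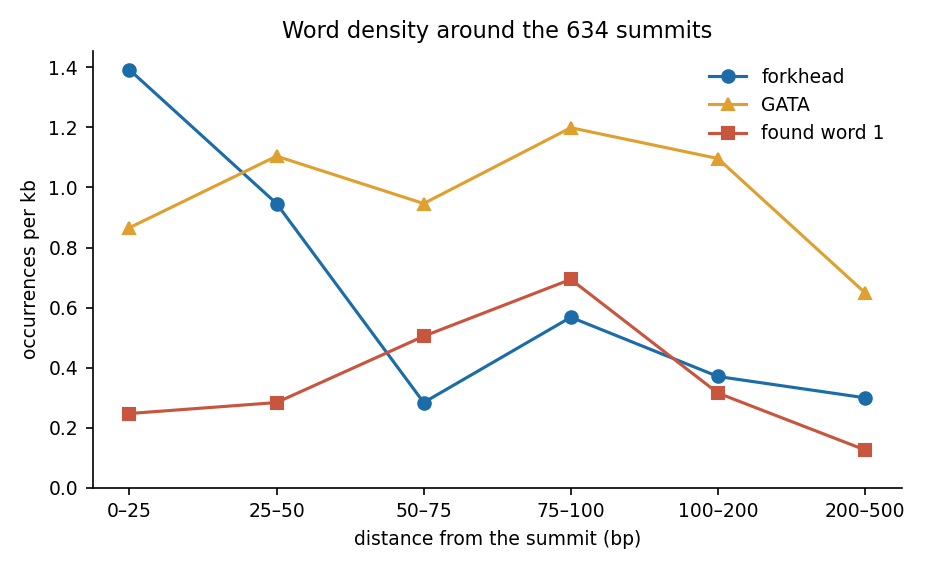
Occurrences per kb (y axis) of the forkhead word, the GATA word and CACTGTA (found word 1) by distance from the summit (x axis, bp) over the 634 summits. The forkhead word is densest within 25 bp (1.39 per kb), GATA stays between 0.649 and 1.20 per kb, and CACTGTA is highest from 75 to 100 bp (0.694 per kb).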

How the data were processed

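The authors called peaks per replicate and on both replicates together, against a control, and derived the IDR list from these, per the deposited descriptions. Tools and thresholds for alignment, calling and IDR were not given in the sources used here. The control was not analysed here. The deposited signal of a peak was used only within a list. The deposited −log10 q value equals its maximum in every IDR peak and was not used. The IDR list is the 6486 strongest rows of the pooled list, which ends, like the replicate lists, at 30000.

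Gene models were those of Ensembl release 115, with transposable elements left out, and bases were read from the Release 6 assembly. Eligible sequence was cut into all consecutive windows of 100 bp to either side of a centre. Shares have exact Clopper-Pearson intervals, densities exact Poisson intervals and medians order-statistic intervals. No hypothesis test was made. The members, gene lists and words were chosen with earlier results of these data known. Named were the 30 strongest summits, the 10 genes with the most, at most the 3 strongest hosts per list, the 3 summits to either side of the limit, the 3 weakest, and the strongest holders of words. Others (further list hosts, the summits missed by a replicate, all signals within a gene and the 7-base words) were chosen after their values were seen. Listed genes not matched in the annotation were not analysed here. Procedures were tested on simulated data. Alternatives used each replicate alone, other thresholds, distances, windows and annotations. The scripts ran with scipy 1.17.1, matplotlib 3.10.9, numpy 2.4.6 and pandas 2.3.3 under Python 3.11.15.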

Additional observations from a re-analysis of the deposited data

How the results depend on the processing

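Under the alternatives, 76 recomputed values stayed within 1.5 times the count or inside the 95% interval reported above, and 39 moved outside it. No paired analysis was possible because the labels give 1 group only. With the strongest 6486 peaks of a single replicate in place of the IDR list, that is without replicate 1 or without replicate 2, all results with a value stayed inside: 644 to 652 summits, 19.3 to 19.5 per Mb, a median signal 0.866 to 0.883 times that of the list, 70.3 to 72.1% of hosts with a bound start, 25.8 to 26.4% of listed genes as hosts, the forkhead word in 12.9 to 13.8%, a median GC of 35.8 to 36.8%, 56.7% in first introns in both and a median spacing of 2507.5 to 2866 bp. Presence in both replicates has no value in those settings. In the strongest 3243 IDR peaks there were 256 summits (7.67 per Mb), 100% of them in both replicates, 53.3% of hosts with a bound start (23.8% of all genes), 15.8% of listed genes as hosts, a GC of 34.8%, 62.1% in first introns and a spacing of 5385.5 bp. In the whole pooled list there were 5739 (172 per Mb), a relative signal of 0.796, 66.6% in both replicates, 89.7% of hosts with a bound start (77.7% of all genes), 63.6% of listed genes, the forkhead word in 8.52%, a GC of 39.8%, 47.9% in first introns and a spacing of 838 bp. A limit of 1000 bp gave 989 summits (25.3 per Mb), 63.7% in first introns (35.2% of eligible windows) and a spacing of 2061 bp. A limit of 5000 bp gave 286 (12.5 per Mb), 18.9% of listed genes, 49.7% in first introns (24.3% of eligible windows) and 4628 bp. Beside these shares of listed genes, the hosts among all genes were 5.75% in the strongest 3243 peaks and 35.6% in the pooled list. At the 5000 bp limit they were 12.3%, nearer to the listed genes (95% interval 14.1 to 24.5). Summits within 100 bp in both replicates were found for 96.1%. A start window of 250 bp gave 61.7% of hosts bound (34.9% of all genes) and one of 1000 bp 78.3% (45.8%). Windows of 50 bp to either side gave the forkhead word in 10.6% (2.09% of eligible windows) and a GC of 34.7%, and those of 200 bp to either side 19.9% (8.26%) and 38.7%. Read depth, tissue of origin and the control set limits that the peak lists do not show.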
